A study of Danio rerio with 6 samples.

Results

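The regions described here are the promoter regions among open chromatin regions listed as larger in adults derived from cortisol-treated embryos. Of the 9546 regions in that list, the 4493 whose annotation begins with promoter-TSS (47.1%) were taken. They belong to 4349 genes. The annotation calls a region a promoter when its centre lies within 1000 bp upstream or 100 bp downstream of an annotated transcription start. The list itself was chosen by the signal of these same libraries, pooled by treatment, so every treated against control value below is a description and was given no test. The other annotated rows of the list, 4928 in number, were intergenic (3378), in introns (1103), in exons (183), in 5′ UTRs (136), at transcript ends (113) or in 3′ UTRs (15). The remaining 125 rows had no annotation.

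A promoter is the stretch of DNA around the start of a gene where general transcription factors and RNA polymerase assemble. At active genes nucleosomes are moved aside there, and ATAC-seq, in which a transposase inserts sequencing adapters into accessible DNA, shows this as a peak of reads. Promoters of genes used in every cell tend to be open everywhere, whereas promoters of signal-responsive genes can gain or lose openness with hormones such as cortisol, which acts through the glucocorticoid receptor. Fish red blood cells keep their nucleus, so blood chromatin of zebrafish is largely red cell chromatin.

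Blood was taken from adult AB zebrafish in 6 libraries. Fish of 3 libraries had been kept as embryos and larvae in medium with 1 µM cortisol for 5 days, and fish of the other 3 had received the vehicle DMSO, after which both groups were raised under normal conditions. Replicate 3 of each group was 10 months old, replicate 2 was 11 months and replicate 1 was 12 months. The study states that each ATAC-seq replicate was blood pooled from 6 fish, with males and females in equal number. The deposited description speaks of 6 individual adults, which can also be read as 1 adult per library. The 3 cortisol-treated lists, in order of replicate number, held 49583, 56695 and 26905 peaks, and the 3 DMSO-control lists 138146, 63072 and 29401. Read totals were not used here, so the depth behind a score is unknown. Unless said otherwise, values of 3 libraries are given in the order of replicates 1, 2 and 3. The peak names inside the lists carry a digit that is 0 in cortisol-treated replicate 1 and in DMSO-control replicates 2 and 3, and 1 in the other libraries. Within replicate number 1 the digits thus run opposite to the labels of numbers 2 and 3. Names in the list of larger regions and in the pooled lists also begin with the word Flipped, whose meaning is not given in the sources used here. Groups and the direction of the list follow the labels and the file, and treated against control values are also given without both libraries of number 1.

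Each region was given, in each library, the score of the highest-scoring peak that overlapped it by at least 1 bp. That score was ranked as a percentile among the 13835 regions that had a peak in every library, where 100 is the most open. A peak was found in all 6 libraries at 4294 promoter regions (95.6%), and at 4486 of the other annotated regions (91.0%). A further 147 promoter regions lacked a peak in 1 library, 41 in 2, 8 in 3 and 3 in 4. Of these 199, 185 lacked it in control libraries only, 2 in treated libraries only and 12 in both groups. DMSO-control replicate 1, which had the longest list, lacked 161 of them. The median width of the 199 was 284 bp, against 391 bp for the promoter regions found in all 6. All values below that are percentiles refer to the 4294.

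Promoter regions lay mostly just upstream of the start. The centre was upstream at 3313 (73.7%), downstream at 1151 (25.6%) and at the start itself at 29. The annotation window reaches 1000 bp upstream but only 100 bp downstream, so these shares are partly set by that rule. Within 100 bp, where the window covers both sides, 1327 regions lay up to 50 bp upstream and 882 over 50 and up to 100 bp. Downstream, 787 lay at 0 to 50 bp and 358 over 50 and up to 100 bp. The median distance was -40 bp, where negative values are upstream, with quartiles of -99 and 1 bp. Within 50 bp of the start on either side lay 2114 (47.1%), within 100 bp 3354 (74.6%) and within 200 bp 3923 (87.3%). The region covered the start in 3957 cases (88.1%). Only 255 (5.68%) were centred more than 500 bp upstream, and 35 were listed more than 100 bp downstream. At all 35 the transcript named by the annotation was not the one from which the distance was measured, as was so at 300 promoter regions in all.

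**Figure D1:**
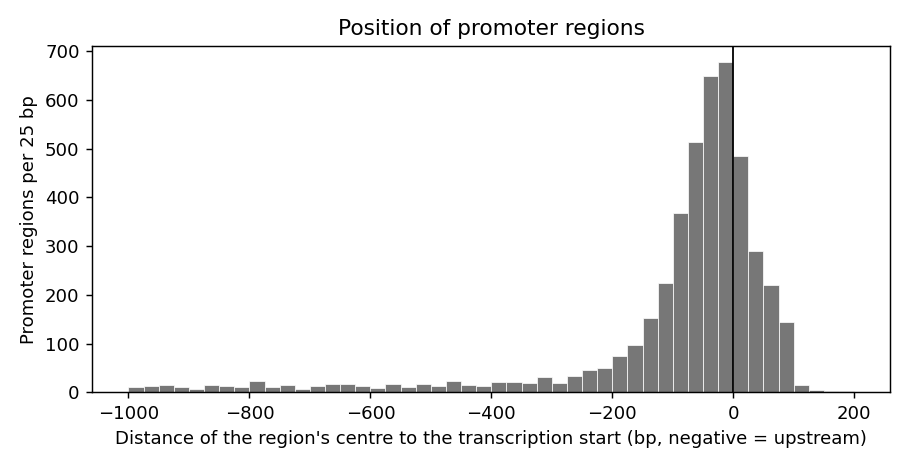
Number of promoter regions per 25 bp of distance between the region's centre and the transcription start, negative values being upstream. The tallest bar, with 677 regions, ends at the start itself. The annotation window ends 1000 bp upstream but 100 bp downstream, so the drop beyond 100 bp downstream is set by that rule. Within 100 bp of the start, counts per bar fall from 677 to 368 upstream and from 484 to 145 downstream.

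Regions at the edges of the window are given as a description. Just inside the upstream edge, the region at *dusp23b* (distance -999 bp) had percentiles of 76.3, 76.3 and 70.7 in cortisol-treated and 80.1, 75.4 and 64.6 in DMSO-control libraries. Just outside it, the intergenic region nearest *fam78ab* (-1002 bp) had 66.2, 66.2 and 63.9 in treated and 66.9, 69.2 and 69.8 in control libraries. At the downstream edge the region at *jtb* (100 bp) was counted as promoter, with 82.3, 78.3 and 80.7 in treated and 68.7, 72.9 and 83.7 in control libraries. The region at *foxk1*, 1 bp farther and annotated as exon, had 52.1, 64.1 and 68.9 in treated and 68.7, 68.6 and 66.8 in control libraries.

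Where a promoter region lay relative to its start went with how open it was. The most open were those centred over 100 and up to 200 bp upstream, with median percentiles of 73.8, 78.4 and 81.1 in cortisol-treated and 71.7, 78.0 and 80.4 in DMSO-control libraries (532 regions). Those centred 0 to 50 bp downstream had 57.1, 61.3 and 63.4 in treated and 53.2, 55.8 and 63.0 in control libraries (745 regions). Every library thus had its highest median in the same bin and a lower one downstream. Averaged over the 6 libraries, the medians were 66.9 ± 3.07 over 500 bp upstream, 72.8 ± 2.57 over 200 and up to 500 bp, 77.2 ± 3.72 over 100 and up to 200 bp, 74.4 ± 2.76 over 50 and up to 100 bp and 65.7 ± 3.99 up to 50 bp (SD, n = 6 libraries). Downstream they were 59.0 ± 4.21 up to 50 bp and 56.4 ± 4.94 over 50 and up to 100 bp. The 32 regions beyond 100 bp downstream had medians between 44.9 and 58.1. Width moved with position too. Over all promoter regions its median was 363 bp over 500 bp upstream, 452.5 bp over 200 and up to 500 bp, and 437 bp over 100 and up to 200 bp. At 0 to 50 bp downstream it was 374 bp, and over 50 and up to 100 bp downstream 355 bp. Position was not separated from width. These bins are a description without a test.

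**Figure D2:**
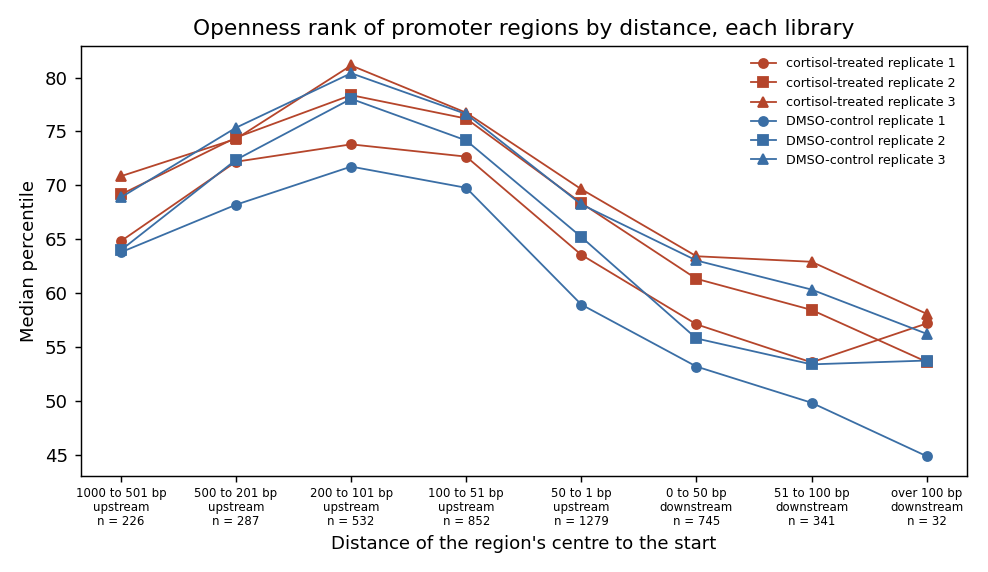
Median percentile of promoter regions in 8 bins of distance to the start, 1 line per library, cortisol-treated in red and DMSO-control in blue, with the number of regions under each bin. The vertical axis does not start at 0. All 6 lines peak over 100 and up to 200 bp upstream and are lower downstream of the start.

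The test that was set for position compared regions within 200 bp of the start with those farther away. The nearer ones had medians of 64.5, 69.0 and 70.7 in cortisol-treated and 60.4, 65.2 and 69.5 in DMSO-control libraries. The farther ones had 68.9, 71.2 and 72.4 in treated and 65.8, 68.6 and 71.9 in control libraries. The nearer ones were the lower in 6 of 6 libraries, with a difference of -3.24 ± 1.43 points (mean and SD over libraries). The exact two-sided sign-flip permutation test over the 6 libraries gave p = 0.03125, the smallest it can give. After Benjamini-Hochberg adjustment over the 5 tests made here it was 0.0781 and did not pass 0.05. With the limit at 100 bp in place of 200 bp the difference over the 6 libraries was -8.66 points, with an adjusted p of 0.0781 by the sign-flip test. The window ends 100 bp downstream, so the farther regions lay almost all upstream and the nearer ones on both sides. Nearness and side are thus not separated by this test. On the upstream side alone, the averaged bin medians were 77.2, 74.4 and 65.7 within 200 bp, and 72.8 and 66.9 beyond it.

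Widths ran from 200 to 1220 bp, with a median of 387 bp and quartiles of 324 and 453 bp, against a median of 360 bp for the other annotated regions. The lowest value, 200 bp, was that of 44 promoter regions. At least 500 bp wide were 756 (16.8%), against 16.5% of the other annotated regions, and at least 800 bp wide were 87 (1.94%), against 2.64%. The widest belonged to *mepce*, the enzyme that caps the small nuclear RNA *rn7sk*, at 1220 bp. Next came *sp4*, a zinc finger transcription factor, at 1170 bp, and *prpf4ba*, a kinase of the splicing machinery, at 1154 bp. The region at *mepce* (chromosome 5, 68011332 to 68012551, GRCz10) had percentiles of 87.3, 90.7 and 91.6 in cortisol-treated and 85.4, 84.9 and 85.4 in DMSO-control libraries. Among those of 200 bp were *zdhhc16b*, *acsf2* and *fam53b*, with mean percentiles of 42.0, 36.3 and 38.3 over the 6 libraries.

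Wider promoter regions had higher percentiles. From the narrowest to the widest quartile of width, the median percentile averaged 43.9 ± 5.76, 60.4 ± 4.48, 77.8 ± 2.69 and 87.0 ± 1.59 (SD, n = 6 libraries). Across the 4294 regions, which share libraries and are not independent, Spearman's rho between width and mean percentile was 0.694, and it was 0.555 across the other annotated regions. The relation is given as a description, with no test. Width and percentile are not independent by construction, since the list was made from the signal of these same libraries. A wider region can also overlap more peaks, of which the highest score was taken. A list region and a library's peak are not the same interval. At 3089 promoter regions (71.9%) the library peak was wider than the region in all 6 libraries.

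The median width of the library peak at promoter regions was 538, 673 and 606 bp in cortisol-treated and 482, 477 and 595 bp in DMSO-control libraries. It exceeded that at other annotated regions in 4 of 6 libraries, by 5.33 ± 10.7 bp on average (exact sign-flip permutation test, p = 0.281, adjusted p = 0.281). Peaks with 2 or more summits, places where reads pile up separately within a peak, took a smaller share of promoter regions in each library, a difference that did not pass the adjusted test. In cortisol-treated libraries they made up 18.4%, 28.4% and 20.6% of promoter regions, against 23.5%, 31.3% and 24.5% of the other annotated regions. They made up 17.6% and 22.2% of promoter regions in DMSO-control replicates 1 and 3, against 22.9% and 24.2% of the others, and in DMSO-control replicate 2 the difference was -3.35 percentage points. The difference of -3.75 ± 1.29 percentage points had the same sign in 6 of 6 libraries (exact sign-flip permutation test, p = 0.03125, adjusted p = 0.0781). By position, the mean share with 2 or more summits was 46.2% over 200 and up to 500 bp upstream and 16.0% at 0 to 50 bp downstream.

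Among regions with a peak in all 6 libraries, the difference in openness between promoter and other annotated regions was within the spread between libraries. In cortisol-treated libraries the median percentile of promoter regions was 64.8, 69.3 and 71.0, against 65.0, 67.3 and 66.7 for the other annotated regions. In DMSO-control libraries it was 61.0, 65.8 and 69.8, against 62.1, 61.9 and 66.4. Both libraries of replicate 1, from fish of 12 months, had the promoters lower, and the other 4 had them higher. The mean difference was 2.06 ± 2.24 points (exact sign-flip permutation test over 6 libraries, p = 0.125, adjusted p = 0.156), and it was 3.39 points without both libraries of number 1. With regions lacking a peak kept at percentile 0 it was 3.87 points (exact sign-flip permutation test, p = 0.03125, adjusted p = 0.0521). The median SD of a region's percentile over the 6 libraries was 6.27 points at promoter, 7.02 at other annotated and 7.90 at all shared regions, on a scale that ends at 100 and so leaves less room for spread at high values. Above the 75th percentile in every library were 1181 promoter regions (27.5%), against 1018 of the other annotated regions (22.7%), and below the 25th in every library were 4 and 11.

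**Figure D3:**
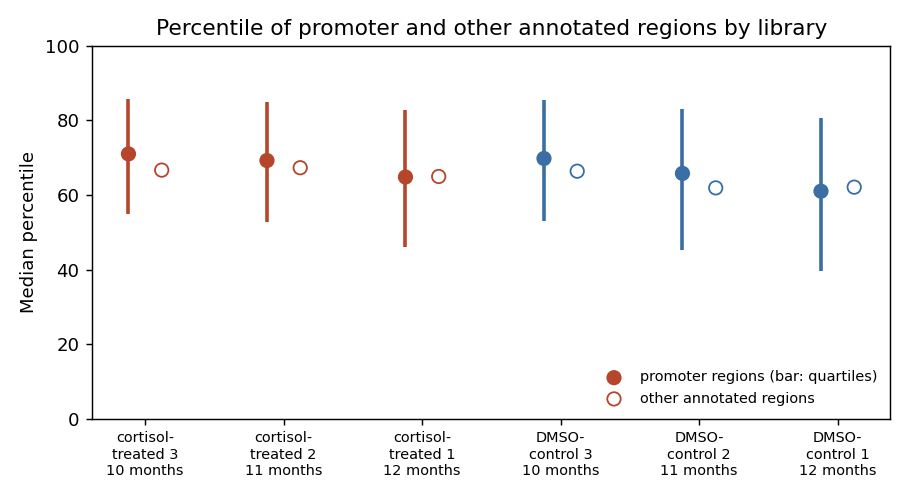
Median percentile in each library of promoter regions (filled, with the bar from the lower to the upper quartile) and of the other annotated regions (open), with age rising from left to right within each treatment. The promoter medians lie between 61.0 and 71.0, and in both treatments the library of 12 months has the lowest.

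The most open promoter regions were near the ceiling in every library. The highest mean percentile was at *chac1* (99.6), whose product breaks down glutathione, and the next were *stat3*, a transcription factor of cytokine signalling, *sin3aa*, a co-repressor scaffold, *tmem57b* and *osgn1*, which is induced by oxidative stress. These 5 all averaged at least 99.5 over the 6 libraries, and all 5 were centred upstream of the start, at distances between -368 bp (*sin3aa*) and -117 bp (*osgn1*). The least open were *ddx52*, an RNA helicase, *mrpl43*, a protein of the mitochondrial ribosome, *hbegfb*, a growth factor, *tubgcp4* of the gamma-tubulin complex, and *poldip2*. The region at *ddx52* (26 bp upstream, 257 bp wide) had 3.22, 20.2 and 29.1 in cortisol-treated and 0.622, 1.52 and 14.2 in DMSO-control libraries. Those at *hbegfb*, *tubgcp4* and *poldip2* were centred 74, 42 and 54 bp downstream. None of these 5 was wider than 308 bp.

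The regions that varied most between libraries did so in steps, with the library peak narrow where the percentile was low. At *tbl1xr1b*, a component of co-repressor complexes, the percentile was 33.4, 94.3 and 93.4 in cortisol-treated and 17.7, 48.5 and 93.9 in DMSO-control libraries. The peak there was 578, 1148 and 1163 bp wide in the treated and 566, 445 and 1118 bp wide in the control libraries, and in the 3 libraries with the wide peak it also covered the gene's other promoter region. At *kif4*, a kinesin that binds chromosomes, the percentile was 31.7, 86.4 and 84.0 in treated and 30.5, 17.5 and 81.0 in control libraries, with peaks of 359, 1030 and 973 bp and of 309, 367 and 966 bp. Low and high libraries occurred in both treatments at these genes. At *pdap1b* 1 library stood apart, DMSO-control replicate 1, with 5.45, while the other 5 lay between 69.7 and 82.9.

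Most genes had 1 promoter region (4208), 138 had 2 and 3 genes, *guk1a*, *nipa2* and *ppp1r10*, had 3. This gave 144 pairs of neighbouring promoter regions of a gene, with a median gap of 308.5 bp. A gap of at most 1000 bp separated 138 of them, and 134 were annotated to the same transcript start. In 108 pairs no library had the same highest-scoring peak at both regions, in 7 every library had, and in 29 some had. Of the 108 pairs, 94 had a peak at both regions in all 6 libraries, and their mean percentiles differed by a median of 21.5 points. The region nearer to the start was the higher in 54 and the farther in 40. Regions of genes with several had a median percentile 1.67 ± 1.98 points above those of genes with 1, higher in 5 of 6 libraries (exact sign-flip permutation test, p = 0.09375, adjusted p = 0.156).

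At *guk1a*, guanylate kinase, the 3 regions lie on chromosome 2. The region at -143 bp from its start (3203776 to 3204279) had 95.7, 96.3 and 97.0 in cortisol-treated and 95.3, 94.1 and 95.5 in DMSO-control libraries. The region 739 bp away from it, centred 65 bp downstream of another start, had 34.2, 42.9 and 52.4 in treated and 36.0, 33.6 and 47.1 in control libraries. The upstream region was the higher in all 6 libraries. At *nipa2*, a magnesium transporter, the middle region averaged 85.1 ± 2.99 and the one beyond it 26.6 ± 11.7 (SD, n = 6). At *ppp1r10*, a nuclear regulator of protein phosphatase, a single peak covered 2 of the regions in every library, so their percentiles were the same, with a mean of 97.9. Large differences within a gene were also seen at *anp32e*, a histone chaperone, with 96.1 at the region 22 bp downstream and 42.4 at the one at -800 bp. At *hprt1l*, a relative of a purine salvage enzyme, the region at -91 bp averaged 98.2 and the one at -780 bp 48.1. The order was the reverse at *ociad1*, with 37.2 at -13 bp and 87.9 at -786 bp.

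Whether both regions of a gene had the same highest-scoring peak, and so were joined by it, differed between libraries at 29 pairs. How many of these pairs were joined in the treated libraries only was not counted. At *tsc22d3*, described here for having the largest treated minus control difference, the joined peak occurred in the treated libraries only. This gene encodes the glucocorticoid-induced leucine zipper protein of mammals. Its distal region, 601 bp upstream (chromosome 14, 27704298 to 27704632), had 93.8, 93.2 and 90.1 in cortisol-treated and 53.9, 33.6 and 38.5 in DMSO-control libraries, the largest difference of any promoter region (50.4 points). In the treated libraries a single peak of 1432, 1545 and 1475 bp covered this region and the proximal one, 51 bp upstream. In the controls the distal region had a peak of its own, 366, 353 and 410 bp wide. The proximal region had 93.8, 93.2 and 90.1 in treated and 93.6, 88.6 and 91.2 in control libraries, which overlap. The distal percentile in treated libraries is thus that of the joined peak, whose highest summit need not lie in the distal region. At *txnipa*, encoding a thioredoxin-binding protein that glucocorticoids induce in mammals, the distal region (726 bp upstream) was joined to the proximal one in all 3 treated libraries and in DMSO-control replicate 3. It had a percentile of 16.0 in DMSO-control replicate 1 and no peak in DMSO-control replicate 2.

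Treated and control libraries differed at promoter regions by little on the median. The mean percentile was higher in treated libraries at 3415 of 4294 promoter regions (79.5%), against 3398 of the 4486 other annotated (75.7%) and 59% of all shared regions. The median of treated minus control was 2.57 points for promoter, 2.90 for other annotated and 0.978 for all shared regions. The treated libraries were all higher than every control at 318 promoter regions (7.41%), against 9.94% of the other annotated and 5.88% of all shared regions. They lay below all controls at 32 (0.745%), against 2.9% of all shared regions. Paired by replicate number, with each treated library set against the control of its own age, the treated library was the higher in all 3 numbers at 1357 promoter regions (31.6%), against 1345 of the 4486 other annotated and 21.5% of all shared regions. Since the list was selected on this contrast, nothing is read from these counts.

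By replicate number, the treated library was the higher at 71.6% of promoter regions in number 1, 72.9% in number 2 and 58.7% in number 3, with medians of 3.07, 2.73 and 0.696 points. Without both libraries of number 1 the median difference was 1.89 points. It was 4.06 without cortisol-treated replicate 1, 1.62 without cortisol-treated replicate 3, 0.755 without DMSO-control replicate 1 and 4.49 without DMSO-control replicate 3. With percentiles among all peaks of each library's own list, which move with the length of the list, it was -1.06 points. The count of 318 was then 25, and with fewer libraries it was larger, 981 without cortisol-treated replicate 1, 528 without cortisol-treated replicate 2, 1341 without DMSO-control replicate 3 and 1134 without both libraries of number 1.

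After *tsc22d3*, the largest treated minus control differences were at *zgc:92664* (36.2 points), *spata5l1* (32.6), an ATPase gene, *gstm.3* (29.8), a glutathione transferase, and *ogfod1* (27.5), an oxygenase that hydroxylates a ribosomal protein. The region at *gstm.3* (49 bp upstream) had 39.6, 32.0 and 39.7 in cortisol-treated and 6.77, 0.0759 and 15.2 in DMSO-control libraries. That at *spata5l1* had 27.2, 54.2 and 41.5 in treated and 8.21, 0.936 and 16.1 in control libraries. The groups did not overlap at *tsc22d3*, *spata5l1*, *gstm.3* and *ogfod1*. All treated libraries exceeded all controls at 7.41% of promoter and 5.88% of all shared regions. The regions named here were picked by their difference, so nothing is read from their separation. At *zgc:92664* DMSO-control replicate 3 had 89.9, within the treated values of 91.9, 92.9 and 89.5. In the other controls the peak there was 444 and 365 bp wide, against 915 to 1035 bp in the treated libraries. In the 4 libraries with the wide peak it also covered the gene's other promoter region.

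The most negative differences were at *h3f3c* (-25.8 points), encoding a histone of the replacement type, *arntl2* (-18.3), *kdm2aa* (-16.6), a histone demethylase, *yy1a* (-13.7), a zinc finger transcription factor, and *nol12* (-12.6), a nucleolar protein. At 3 of these 1 treated library stood apart. The region at *h3f3c* had 14.3 in cortisol-treated replicate 1, against 95.5 and 95.2 in the other treated and 94.3, 93.5 and 94.8 in control libraries. At *kdm2aa* it was cortisol-treated replicate 3, with 47.0, and at *yy1a* cortisol-treated replicate 1, with 31.7. In that library the peak was 417 bp wide at *h3f3c*, 434 bp at *kdm2aa* and 741 bp at *yy1a*. In the other libraries it was 907 to 1215, 993 to 1271 and 1301 to 1392 bp wide, in the same order. The groups did not overlap at *arntl2*, which encodes a partner of the Clock protein, where treated libraries had 42.5, 24.5 and 47.0 and control libraries 50.7, 56.5 and 61.8. They did not overlap at *nol12* either, with 38.8, 53.1 and 49.3 in treated and 64.3, 61.2 and 53.7 in control libraries. All treated libraries lay below all controls at 0.745% of promoter and 2.9% of all shared regions. These regions too were picked by their difference, so nothing is read from their separation.

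**Figure D4:**
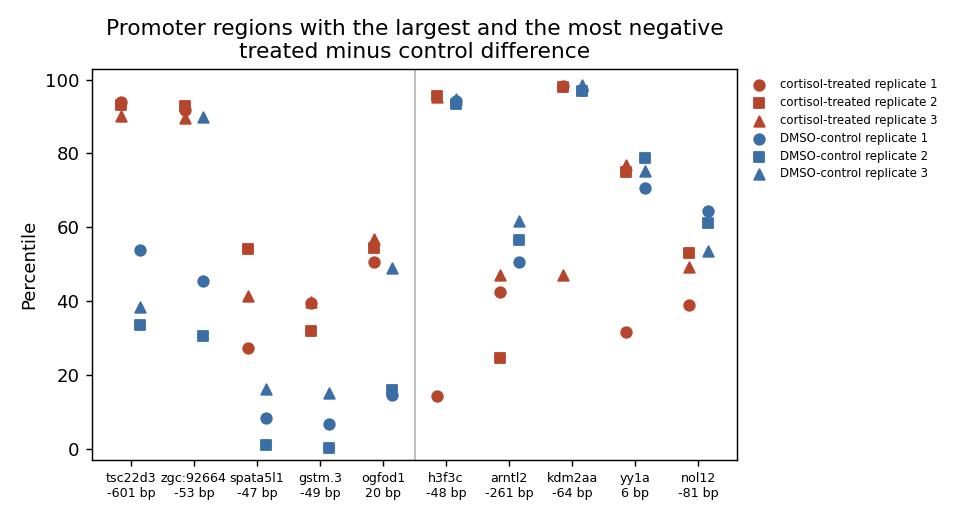
Percentile in each library at the 5 promoter regions with the largest treated minus control difference (left of the line) and the 5 with the most negative (right), with cortisol-treated in red left of DMSO-control in blue. At *tsc22d3* the treated libraries lie between 90.1 and 93.8 and the controls between 33.6 and 53.9, while at *h3f3c* a single treated library is low.

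Most promoter regions had lower percentiles at 12 than at 10 months in both treatments. Both libraries from fish of 12 months lay below both from fish of 10 months at 2335 promoter regions (54.4%), against 38.0% of the other annotated and 36.3% of all shared regions. They lay above at 182 (4.24%), against 13.6% of the other annotated and 19.4% of all shared regions. Within the treated libraries 3271 promoter regions (76.2%) were lower at 12 than at 10 months, with a median difference of -3.92 points. So were 62.0% of the other annotated (median -1.45 points) and 61.1% of all shared regions (median -1.83 points). Within the controls 3496 promoter regions (81.4%) were, with a median of -6.50 points, as were 68.2% of the other annotated (median -3.59 points) and 59.8% of all shared regions (median -2.37 points). A lower percentile at 12 months was thus the more frequent direction in all 3 sets. The age values are a description, with no test. Age went with replicate number, 12 months being replicate 1 and 10 months replicate 3 in both treatments.

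The difference between 12 and 10 months ran through the promoter window. The share of regions with both 12-month libraries below was 42.9% over 500 bp upstream, 55.6% over 100 and up to 200 bp, 56.0% up to 50 bp upstream and 58.1% over 50 and up to 100 bp downstream. Each age was that of a single replicate number, so the 12-month and 10-month libraries also differ in replicate. The lists at 12 months were longer in both treatments (49583 and 138146 peaks) than those at 10 months (26905 and 29401). Between 12 and 10 months, age, replicate and list length cannot be told apart. Across all ages list length did not follow age in the treated group, where the 11-month list was the longest (56695 peaks). On percentiles within each library's own list the order turned, and 92 promoter regions had both 12-month libraries below and 3076 had them above. With 1 library left out the count below was 3284 without cortisol-treated replicate 1, 2750 without cortisol-treated replicate 3, 2657 without DMSO-control replicate 1 and 2996 without DMSO-control replicate 3.

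Promoter regions were then read by gene list. The median of the mean percentile over all 4294 was 66.0, and the lists below are given beside it, as counts and medians without a test. The share of all annotated genes that had a promoter region was not computed. Counts of list genes with such a region therefore have no baseline. Lists of regulatory genes stood high, but they were chosen with earlier results of these data known. Members such as *chac1*, *klf9*, *txnipa*, *glcci1* and *klf11a* are also among the top peaks that the study reported from these libraries. Nothing is therefore read from the height of these lists. Krüppel-like and Sp transcription factors had a median of 94.7 (12 regions), genes of the circadian clock 91.5 (19 regions) and corticosteroid-responsive genes 90.9 (16 regions). These regions were also wider, with medians of 540.5, 476 and 451 bp, and centred farther upstream, at -112, -164 and -146 bp. The lists share *klf9* (corticosteroid and Krüppel-like) and *klf1* and *klf17* (Krüppel-like and erythroid). Translation factors had a median of 60.5 (48 regions), proteasome subunits 56.0 (28 regions) and ribosomal proteins 69.0 (64 regions), with median widths of 375, 374.5 and 394 bp and distances of -17, -35.5 and -32.5 bp.

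**Figure D5:**
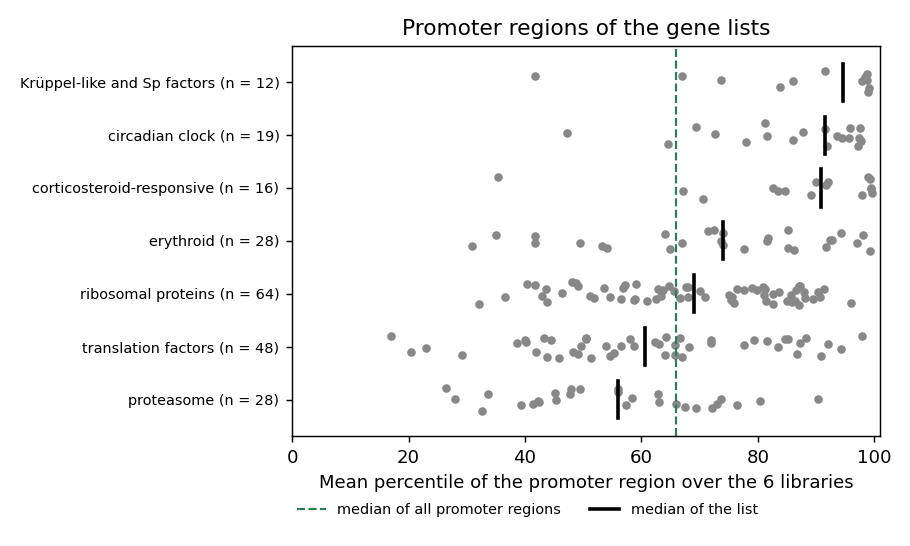
Mean percentile over the 6 libraries of each promoter region in 7 gene lists (points), with the list's median (black bar) and the median of all promoter regions, 66.0 (dashed line). The upper 3 lists have medians above 90, and those of translation factors and proteasome subunits lie below the dashed line.

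Of 29 corticosteroid-responsive or corticosteroid-signalling genes, 15 had a promoter region and 5 others a region of another class only. In all 6 libraries 13 of the 16 regions were above the 75th percentile, against 27.5% of all promoter regions. The glucocorticoid receptor gene *nr3c1*, through which cortisol acts, had 85.3, 87.4 and 88.3 in cortisol-treated and 76.4, 84.5 and 86.5 in DMSO-control libraries. *dusp1*, a phosphatase that damps stress kinases, had 90.5, 89.5 and 94.1 in treated and 93.3, 92.3 and 92.2 in control libraries. The groups overlapped at both. The lowest of the list was *socs3b*, an inhibitor of cytokine signalling, with a mean of 35.3. The treated mean was the higher at 13 of the 16 regions, near the 79.5% of all promoter regions, by a median of 1.03 points. All treated libraries exceeded all controls at 7.41% of promoter regions, and in this list the groups did not overlap at *klf9*, *glcci1* and the distal region of *tsc22d3*.

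Of 35 Krüppel-like and Sp factors, which bind GC-rich promoter sequences, 12 had a promoter region. Of these, 9 were above the 75th percentile in all 6 libraries, against 27.5% of all promoter regions. *klf11a*, *klf6a*, *sp2*, *sp4*, *klf11b* and *klf9* all had means between 97.8 and 99.1. The lowest was *klf1*, the red cell factor of the family, with 41.0, 61.3 and 52.4 in cortisol-treated and 26.0, 24.1 and 45.1 in DMSO-control libraries. *klf17*, also a red cell factor in zebrafish, had 70.9, 73.6 and 73.7 in treated and 52.4, 61.2 and 70.3 in control libraries, without overlap. *sp1* had 61.6, 73.8 and 77.2 in treated and 71.9, 79.6 and 77.9 in control libraries, which overlap. The treated mean was the higher at 11 of the 12, against 79.5% of all promoter regions. All treated libraries exceeded all controls at 2 of the 12, *klf9* and *klf17*, against 7.41% of all promoter regions.

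Of 40 clock genes, 18 had 19 promoter regions, 13 of them above the 75th percentile in all 6 libraries, against 27.5% of all promoter regions. The clock is a loop in which Clock and Arntl proteins switch on period and cryptochrome genes, whose products act back on them. Among the repressors, *per3* had 97.5, 97.3 and 97.3 in cortisol-treated and 97.1, 96.9 and 96.6 in DMSO-control libraries. The groups did not overlap at *per3* and at *csnk1db*, a kinase that acts on period proteins, with 83.2, 83.5 and 84.6 in treated and 78.9, 74.2 and 82.8 in control libraries. *per1b* had 2 regions, at -167 and -777 bp, which shared a peak in 3 libraries and averaged 97.6 and 97.4. *cry1bb* had a region 1016 bp wide, with a mean of 94.5. The other cryptochrome genes *cry2*, *cry1aa* and *cry1ab* averaged 91.5, 78.0 and 69.4. The activator *arntl2* was the lowest of the list, with a mean of 47.1, and there all treated libraries lay below all controls, as given above. Its relative *arntl1a* averaged 91.9, and the groups overlapped there. The treated mean was the higher at 14 of the 19 regions, against 79.5% of all promoter regions, and all treated libraries lay above at 2, against 7.41%.

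Of 48 erythroid genes, 27 had 29 promoter regions. Of the 28 found in all 6 libraries, 11 were above the 75th percentile in each, against 27.5% of all promoter regions. The median was 74.0. By role, the regulators *gata1a* and *tal1* averaged 73.7 and 86.2, and *lmo2*, which bridges them, 30.9. *gata1a* had 77.3, 77.5 and 81.1 in cortisol-treated and 64.8, 64.0 and 77.4 in DMSO-control libraries, overlapping by DMSO-control replicate 3. Of the enzymes that make heme, *cpox* had 92.6, 94.9 and 94.1 in treated and 87.1, 92.6 and 95.6 in control libraries, and *alas2*, the entry enzyme, had a mean of 73.9 ± 2.72 over the 6 libraries (SD). Neither separated the groups.

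The membrane protein gene *slc4a1a*, the anion exchanger of red cells, had 97.9, 97.0 and 97.9 in cortisol-treated and 96.2, 95.2 and 97.7 in DMSO-control libraries. *bnip3lb*, whose mammalian relative clears mitochondria from maturing red cells, was the highest of the list, with a mean of 99.3 and a region of 909 bp. The alpha globin gene *hbaa1* had 2 regions on chromosome 3, with means of 91.6 and 94.3. Globin genes are near-identical copies and the reads were 30 bp long, so the split between copies is uncertain. The receptors stood lower, with a mean of 54.0 at *epor*, the erythropoietin receptor. *tfr1b*, a transferrin receptor, had 27.2, 40.4 and 56.2 in treated and 5.45, 30.5 and 50.2 in control libraries. *slc25a37*, which carries iron into mitochondria, had a proximal region with no separation and a region at -867 bp with 57.5, 58.4 and 58.7 in treated and 21.2, 46.3 and 54.7 in control libraries. The treated mean was the higher at 25 of the 28 erythroid regions, against 79.5% of all promoter regions, by a median of 4.07 points, against 2.57. It was also the higher at 25 of the 28 proteasome regions, by a median of 3.46 points. For ribosomal proteins it was 52 of 64 (2.15 points) and for translation factors 39 of 48 (2.69 points). The list was selected on this contrast, so nothing is read from these counts. At 4 of the 28 erythroid regions every treated library exceeded every control, against 7.41% of all promoter regions. These were at *bnip3lb*, *klf17*, *fbxo7* and the distal region of *slc25a37*.

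Markers of other blood cells were nearly absent from the promoter regions. Of 24 myeloid genes and 22 lymphoid genes 0 had a promoter region, while 4 myeloid and 3 lymphoid genes had a region of another class. Of 14 thrombocyte genes, *gp1bb* and *f13a1b* had one, with means of 90.5 and 76.5. This counts rows of a list selected as larger in treated fish and not open promoters in blood. It also lacks a baseline, since the share of all annotated genes with a promoter region was not computed. Fewer cells of a type and less open chromatin per cell cannot be told apart in these bulk libraries.

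Among the genes used in every cell, values ran over most of the range. Ribosomal protein genes had 66 promoter regions at 65 genes, from *rps21*, with a mean of 32.1, to *rplp0*, with 96.0. The name pattern for this list also took *rps6kal*, a kinase gene. Proteasome genes ran from *psma1*, a subunit of the outer ring of the core, with 26.5, to *psmd4a*, a ubiquitin receptor of the cap, with 90.4. Of the 28 proteasome regions, 1 was above the 75th percentile in all 6 libraries, against 27.5% of all promoter regions. Translation factors ran from *eif4a3* (17.0) to *eif4a1b* (97.9), which encode related RNA helicases. *eif4a3* had 14.3, 16.3 and 28.0 in cortisol-treated and 23.0, 1.52 and 18.9 in DMSO-control libraries, and *eif4a1b* had 97.9, 98.3 and 97.9 in treated and 97.2, 97.9 and 98.4 in control libraries. The region at *eif4a1b* was the higher in every library. Both 12-month libraries lay below both 10-month libraries at 49 of the 64 ribosomal and 17 of the 28 proteasome regions. So they did at 32 of the 48 translation factor and 17 of the 28 erythroid regions. In the other lists it was 8 of the 16 corticosteroid, 8 of the 12 Krüppel-like and Sp, 11 of the 19 clock and 1 of the 2 thrombocyte regions. The share was 54.4% over all promoter regions and 36.3% over all shared regions. Within each library's own list the order over all promoter regions turned, as given above.

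Only 13 promoter regions belonged to genes other than protein-coding ones, 11 to non-coding and 2 to small nuclear RNA genes. Of microRNA genes, *mir144*, which is made in red cells, had the highest values, 98.8, 99.2 and 99.6 in cortisol-treated and 97.9, 98.1 and 99.3 in DMSO-control libraries, at a region centred 502 bp upstream. *mir210*, a microRNA induced by low oxygen in mammals, had 91.0, 93.6 and 95.3 in treated and 90.8, 92.4 and 93.1 in control libraries. *mirlet7j* had 39.6, 47.3 and 33.9 in treated and 19.5, 28.8 and 42.3 in control libraries. The groups overlapped at all 3. The small nuclear RNA gene *rn7sk*, whose product holds back transcription elongation, had a region of 783 bp with 94.8, 95.3 and 97.0 in treated and 96.6, 95.8 and 94.8 in control libraries. *rnu11*, of the minor spliceosome, had 55.6, 49.1 and 58.7 in treated and 49.8, 53.4 and 61.2 in control libraries.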

How the data were processed

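ATAC-seq of adult zebrafish blood was analysed from peak lists of 6 libraries. Per the labels and methods, the authors trimmed reads (Trimmomatic 0.32), cut them to 30 bp, aligned them to GRCz10 (bowtie 1.0.0), discarded those to the mitochondrial genome, and used MACS2 2.1.1.20160309 to call peaks. The score the authors deposited is -log10 q at a peak's summit multiplied by 10, a whole number, not scaled between libraries, and it rises with depth. The authors compared pooled groups with MACS2 bdgdiff and annotated the result with HOMER 4.8. The Peak Score column of that table holds their own comparison and was not used, nor were the pooled lists.

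Peaks were merged across libraries, and scores ranked and tested, in pandas 2.3.3 and numpy 2.4.6. Spearman's rho was computed with scipy 1.17.1 and figures were drawn with matplotlib 3.10.9, under Python 3.11.15. The percentile and sign-flip computations were checked on simulated data. The 5 tests were two-sided exact sign-flip permutation tests over 6 libraries, adjusted by Benjamini-Hochberg, with a smallest p of 0.03125. Their p-values measure only the spread between these libraries. They treat the 6 as independent, although same-numbered libraries come from siblings of the same age. Genes named are members of the 10 lists, the 5 regions with the highest and lowest mean percentile, with the largest SD and with the largest and most negative treated minus control difference, the 3 widest and 3 narrowest, the genes with 3 regions and the regions at the window's edges. A region that this rule names is not reported here. The genes *anp32e*, *hprt1l* and *ociad1* and the non-coding genes were chosen after their values were seen. The members and lists were chosen with earlier results of these data known. Gene symbols are those of the authors' table. An Ensembl identifier was given at 4234 promoter regions, and 4197 of these were in the gene name table used here. Promoter sequences and motif shares, which had been planned, were not analysed here. Alternatives tried were percentiles within a library's own list, a required overlap of 50% (of whichever interval is shorter), promoters by distance alone, a near limit of 100 bp, missing peaks set to 0, the replicate block, each library left out, and, chosen after seeing the data, number 1 left out and the count of regions lower at 12 months.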

Additional observations from a re-analysis of the deposited data

How the results depend on the processing

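The direction of all 5 tested differences was the same under every alternative run, and none passed an adjusted p of 0.05 in any of them. With 1 library left out, the smallest p is 0.0625. Left-out ranges were 1.60 to 2.68 points for promoter minus other, 3.20 to 8.20 bp for peak width, -4.11 to -3.43 percentage points for summits, -3.55 to -2.81 points for nearer minus farther and 1.04 to 2.23 points for several minus 1. The treated minus control median, 2.57 points, ran from 0.755 to 4.49 and was -1.06 within a library's own list. The count of regions with all treated above all control libraries, 318, ran from 424 to 1341 with 1 library left out, and was 25 within the own list and 1134 without both libraries of number 1. The count with both 12-month libraries above ran from 182 to 614 and was 3076 within the own list, and that with both below ran from 2335 to 3284 and was 92. Counts of regions that separate rise with fewer libraries by construction.

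Same-numbered libraries share an age, and the study compared treated fish with their control siblings in each of 3 replicates. Their deviations from the group means correlated by 0.580, 0.0827 and 0.574 for numbers 1, 2 and 3 over all shared regions, and by 0.348, 0.123 and 0.225 over promoter regions, where every library correlated best with its own number. The value for number 2 is under 0.1 over all shared regions and above it over promoter regions. The correlations alone thus do not settle how far same-numbered libraries vary together. By the study's design they are pairs, and results are given with and without pairing. With the replicate block the treated library was above its control in all 3 numbers at 1357 promoter regions, the treated minus control median was 2.57 points, and the block changed no call of the 5 tests, whose smallest possible p is then 0.25. How depth limits the ranking of low regions is unknown here, since read totals were not used.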
